A study of Mus musculus with 9 samples.

Results

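The genes that write, maintain and remove DNA methylation were compared among BCR/ABLp185+ mouse cell lines that carried both STAT5 genes or lacked one of them. The set was defined by gene name, with earlier results of these data known. It holds 7 of the 50686 genes in the tables: the methyltransferases Dnmt1, Dnmt3a and Dnmt3b, their cofactor Uhrf1, and the dioxygenases Tet1, Tet2 and Tet3. RNA-seq was performed on 1 immortalized line each of wt, Stat5a-/- and Stat5b-/- genotype, with 3 technical replicates per line. All lines came from bone marrow on a C57BL/6N background transformed with BCR/ABLp185, an oncogenic fusion kinase that activates STAT5, and the knockout mice lacked the respective gene in all cells. No treatment separated the lines, which all grew in RPMI with 10% FCS. Since each genotype is 1 line, no p-value below measures a spread between lines of a genotype, and genotype and line cannot be told apart. The main edgeR tests share 1 estimate of the spread between technical replicates over all 9 libraries.

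DNA methylation is a methyl group on cytosine, mostly at CpG dinucleotides. Dnmt1 copies the mark onto the new strand after replication, guided by Uhrf1, a ubiquitin ligase that binds hemimethylated CpG and recruits Dnmt1. Dnmt3a and Dnmt3b place the mark at unmethylated sites, whereas the TET enzymes oxidise methylcytosine to hydroxymethylcytosine and further, which opens a way back to unmodified cytosine. In blood cells TET2 and DNMT3A are among the genes most often mutated in myeloid malignancy. Methylation itself was not measured in these libraries.

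In the Stat5b-/- line, Dnmt3b was 2.47-fold lower than in wt, and Tet3, Tet1 and Tet2 were 2.30-fold, 2.11-fold and 1.46-fold higher. In the Stat5a-/- line, Tet1, Tet3, Uhrf1 and Tet2 were 2.38-fold, 2.01-fold, 1.86-fold and 1.21-fold higher, and Dnmt3a was 1.41-fold lower. Only Dnmt3b and Uhrf1 differed between the knockout lines themselves in the direct test, and both were lower in Stat5b-/-. With an offset for GC content, Dnmt1, Dnmt3a and Tet3 were also called there, higher in Stat5b-/- by 0.31, 0.29 and 0.33 on the log2 scale. Dnmt1 passed the test in no comparison without that offset. These calls use an adjusted p under 0.05 from edgeR over 13852 tested genes, and all 7 genes passed the filter on low counts. A fold above 2 was also passed by Dnmt3b, Tet1 and Tet3 in Stat5b-/- and by Tet1 and Tet3 in Stat5a-/-.

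Calls were common in these lines. Of all tested genes, 46.2% were called in Stat5b-/- against wt (24.2% higher and 22% lower), beside 4 of the 7 (57.1%), 3 of them higher and 1 lower. In Stat5a-/- against wt it was 36% (19.8% higher and 16.3% lower), beside 5 of 7 (71.4%), 4 higher and 1 lower. In Stat5b-/- against Stat5a-/- it was 33.9% (16.4% higher and 17.5% lower), beside 2 of 7 (28.6%), 0 higher and 2 lower. With a fold above 2 added, 10.6% of all genes were higher and 8.44% lower in Stat5b-/- against wt, beside 2 and 1 of the 7. These shares were 7.75% and 6.49% in Stat5a-/- against wt, beside 2 and 0, and 4.81% and 6.6% between the knockouts, beside 0 and 0. The median log2 fold change of the 7 genes was 0.25, 0.28 and 0.19 in these comparisons, against 0.02, 0.01 and 0.02 over all tested genes. With 7 genes, these shares do not set the group apart from the rest of the transcriptome.

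The promoter sequences of the 3 genes that passed a fold of 2 in a knockout line are shown because the enzymes they encode act at CpG sites. Whether these enzymes act on the sites shown was not measured. Each is the 250 bases before the transcription start in RefSeq on GRCm38.p6, written 5′ to 3′ on the strand of the gene, with CpG dinucleotides in capitals. The Dnmt3b window is chr2:153649199-153649448 (plus strand), just before the annotated gene. The Tet1 window is chr10:62887325-62887574 (minus strand), and the Tet3 window is chr6:83441679-83441928 (minus strand). Both TET windows lie inside the annotated span of their gene, since other starts are annotated further out, and 174 bases of the Tet3 window overlap exons of the antisense gene B230319C09Rik.
Dnmt3b: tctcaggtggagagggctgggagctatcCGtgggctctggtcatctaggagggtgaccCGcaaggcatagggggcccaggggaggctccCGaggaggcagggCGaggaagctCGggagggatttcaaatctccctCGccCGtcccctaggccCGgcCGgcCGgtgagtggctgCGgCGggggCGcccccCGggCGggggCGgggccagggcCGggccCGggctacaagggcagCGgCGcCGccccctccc
Tet1: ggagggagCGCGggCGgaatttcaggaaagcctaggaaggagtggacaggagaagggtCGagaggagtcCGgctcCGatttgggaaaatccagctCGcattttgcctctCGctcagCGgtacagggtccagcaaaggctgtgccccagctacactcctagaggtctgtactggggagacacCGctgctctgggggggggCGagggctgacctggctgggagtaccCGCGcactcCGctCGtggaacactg
Tet3: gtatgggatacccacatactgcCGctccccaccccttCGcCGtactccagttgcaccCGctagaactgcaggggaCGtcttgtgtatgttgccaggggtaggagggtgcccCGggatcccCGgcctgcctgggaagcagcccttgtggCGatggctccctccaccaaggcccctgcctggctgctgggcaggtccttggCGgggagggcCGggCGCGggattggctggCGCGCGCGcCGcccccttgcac

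These windows hold 21, 15 and 17 CpG sites for Dnmt3b, Tet1 and Tet3, against a median of 6 over the 32851 promoter windows of the table. Windows with at least 15 CpG sites made up 27.3% of the table. All 7 genes matched, with 12 windows among them, because Dnmt1 and Dnmt3a have 3 listed starts each and Uhrf1 has 2. The single Tet2 window held the most, 51 CpG sites, a number reached by 0.067% of windows, and the Dnmt1 window farthest upstream held the fewest, 2.

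The same 250-base windows were searched on both strands for 3 motifs that do not contain one another. The STAT5 motif TTCNNNGAA was in 0 of the 12 windows and in 7.02% of all windows. CACGTG, bound by MYC, was in 1 of 12 (a Dnmt3a window) and in 6.02%. CCAAT, bound by NF-Y, was in 5 of 12 (windows of Dnmt1, Uhrf1 and Tet3) and in 33.8%. A match is a description of the letters, and the gene-level counts do not show which of several starts was used.

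The libraries held between 11948136 and 19016396 counted reads, with medians of 16569410 for wt, 13120053 for Stat5a-/- and 14416483 for Stat5b-/-. Levels are given in CPM, the counts scaled to library size after TMM normalisation. The targeted genes followed the titles: Stat5a was at 12.4 ± 1.02 CPM in Stat5a-/- against 43.2 ± 6.35 in the wt line (mean ± SD, n = 3), and Stat5b was at 63.4 ± 7.72 in Stat5b-/- against 106 ± 1.96. Counts are per gene, so reads from exons outside a deleted part remain in these values. The other STAT5 gene was higher in each knockout, Stat5b by a log2 fold change of 0.43 in Stat5a-/- (SE 0.113, adjusted p = 0.00942) and Stat5a by 0.96 in Stat5b-/- (SE 0.131, adjusted p = 5.95e-05).

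The B-lineage identity of the lines was plain in every genotype, with mean Pax5 between 927 and 1217 CPM and mean Ebf1 between 596 and 715 CPM, although most markers of the list moved with genotype. Of 12 B-lineage markers, 7 were called higher and 2 lower in Stat5a-/- against wt, beside 19.8% and 16.3% of all tested genes. In Stat5b-/- against wt 6 were higher and 4 lower, beside 24.2% and 22%. Cd79a, a chain of the B-cell receptor complex, rose from 713 CPM in wt to 1270 in Stat5a-/- and 1514 in Stat5b-/-, while Rag1, of the antigen receptor recombinase, fell from 64.7 CPM to 0.158 and 0.667. T-cell transcripts also moved with genotype. The summed level of 16 T-cell markers was 782, 979 and 1059 CPM in the wt libraries, 1394, 1536 and 1607 in Stat5a-/- and 1740, 2351 and 2461 in Stat5b-/-, with no overlap between genotypes and none of the 16 at 0. Of these markers 15 were called higher in Stat5b-/- and 8 in Stat5a-/-, including Cd3e, beside 24.2% and 19.8% of all tested genes. The mean of Cd3e was 153 CPM for wt, 218 for Stat5a-/- and 336 for Stat5b-/-. Myeloid and erythroid markers were low, and a few of them also moved with the Stat5b-/- line. The summed level of 10 myeloid markers was 4.16 to 6.67 CPM in wt, 4.88 to 6.64 in Stat5a-/- and 9.57 to 10.9 in Stat5b-/-, and that of 8 erythroid markers was 11.5 to 14.1, 11.8 to 14.6 and 2.81 to 3.96. Lyz2, the lysozyme gene, made up most of the myeloid sum (mean 3.90 CPM in wt and 8.23 in Stat5b-/-). Hbb-bt, a beta-globin gene, made up most of this erythroid sum (mean 11.1 CPM in wt and 2.24 in Stat5b-/-), and each of the other 7 had a mean below 1 CPM, with Hba-a1 and Hba-a2 at 0.0361 and 0.0337 CPM in wt against 0.233 and 0.223 in Stat5b-/-. In Stat5b-/- against wt both tested myeloid genes were called higher and both tested erythroid genes lower, among them Hbb-bt (log2 fold change -2.32, adjusted p = 9.02e-07). The part of these markers in the results below was not tested. The part of T-cell transcripts in the results below cannot be told apart from genotype, and in bulk RNA a changed number of cells and a changed level per cell look the same.

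**Figure D1:**
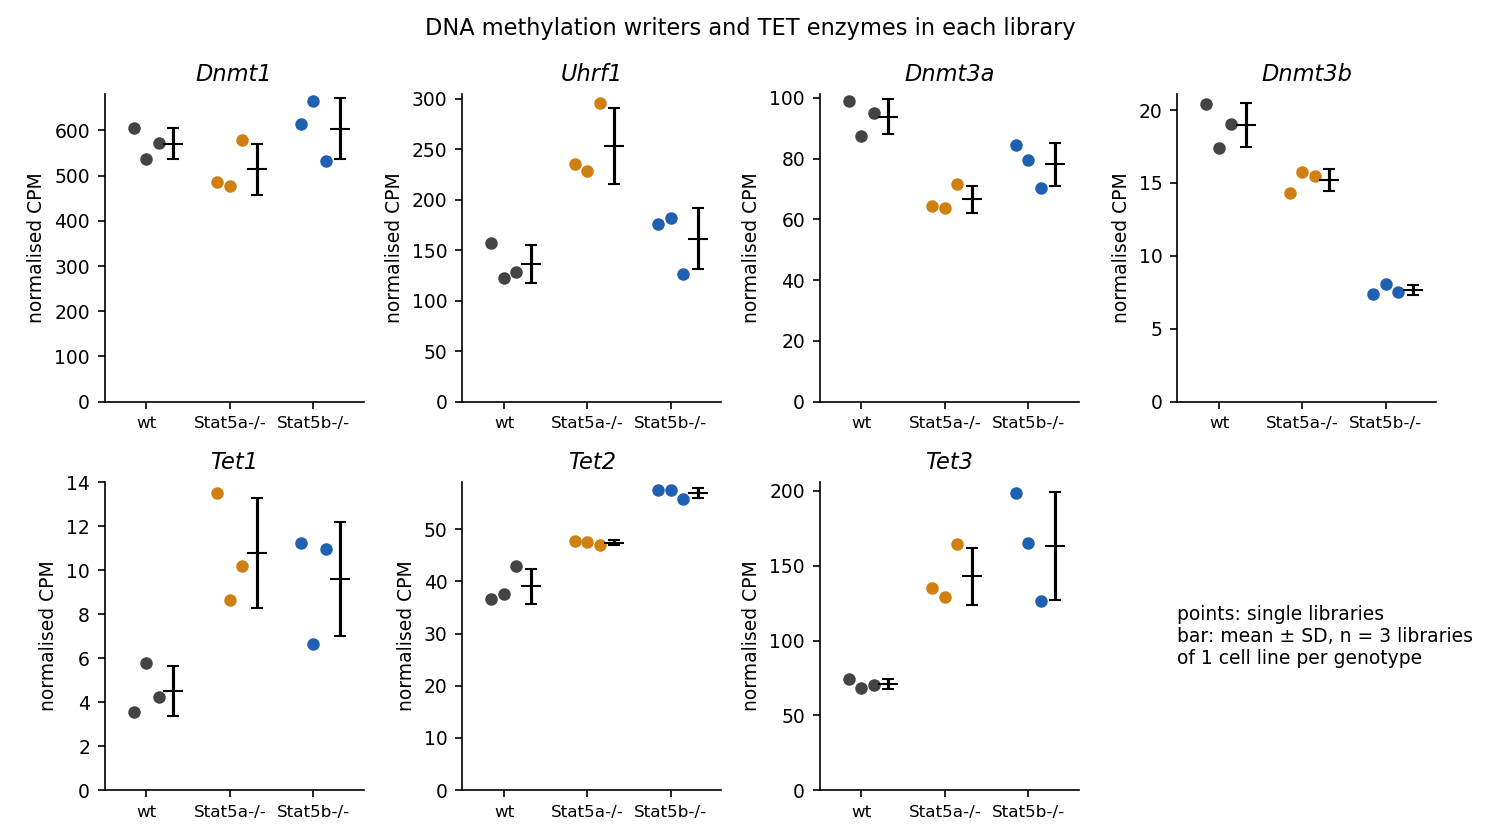
Normalised CPM (vertical axes, each from 0) of the 7 genes in every library of the wt, Stat5a-/- and Stat5b-/- lines, with the mean ± SD of 3 libraries beside the points. Dnmt3b lies between 7.41 and 8.06 CPM in Stat5b-/- and at 14.3 CPM or more elsewhere, and the wt libraries are the lowest for Tet1, Tet2 and Tet3.

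Dnmt1, the maintenance methyltransferase, was the most abundant gene of the group in wt, and its difference from wt did not pass the test in either knockout. Its level was 605, 536 and 572 CPM in the wt libraries, 485, 477 and 579 in Stat5a-/-, and 613, 666 and 533 in Stat5b-/-. The 3 genotypes overlapped. The log2 fold change against wt was 0.08 (SE 0.114, adjusted p = 0.587) in Stat5b-/- and -0.15 (SE 0.115, adjusted p = 0.336) in Stat5a-/-, and between the knockouts it was 0.23 (SE 0.115, adjusted p = 0.136). Leaving out 1 library moved the Stat5b-/- value between 0.01 (without Stat5b-/- replicate 2) and 0.17 (without Stat5b-/- replicate 3), and the Stat5a-/- value reached -0.27 without Stat5a-/- replicate 3. With T-cell transcripts as a covariate, Dnmt1 was at 0.66 in Stat5b-/- (adjusted p = 0.17) and 0.18 in Stat5a-/- (adjusted p = 0.509), and relative to the median of its 20 neighbouring genes it was at 0.38 in Stat5b-/-. With the GC offset, the values in Stat5a-/- against wt (-0.24, adjusted p = 0.0197) and between the knockouts (0.31, adjusted p = 0.00467) were called.

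Uhrf1, the partner that brings Dnmt1 to hemimethylated CpG, was raised in the Stat5a-/- line. It was at 157, 122 and 129 CPM in wt, 235, 228 and 296 in Stat5a-/-, and 176, 182 and 127 in Stat5b-/-. All Stat5a-/- libraries lay above every other library, whereas Stat5b-/- overlapped with wt. On the log2 scale the fold change was 0.90 in Stat5a-/- against wt (SE 0.154, adjusted p = 4.63e-04), 0.25 in Stat5b-/- against wt (SE 0.153, adjusted p = 0.207) and -0.65 in Stat5b-/- against Stat5a-/- (SE 0.153, adjusted p = 0.00587). Without Stat5b-/- replicate 3, the lowest of its line, Stat5b-/- was also called higher than wt (0.40, adjusted p = 0.0312), and with T-cell transcripts as a covariate the call between the knockouts was lost (-0.28, adjusted p = 0.43) and Stat5b-/- against wt was at 1.12 (adjusted p = 0.0883). In that same fit the Stat5a-/- call was kept, at 1.40 (adjusted p = 0.00197). Per kilobase of exon, Dnmt1 was at 77.4 CPM and Uhrf1 at 31.95 CPM in wt, but at 69.7 and 59.5 CPM in Stat5a-/-, where the libraries overlapped.

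The rise of Uhrf1 in Stat5a-/- came with a shift of its whole chromosome. Uhrf1 lies at chr17:56303321-56323486 (GRCm38, plus strand), and the other 676 tested genes of chromosome 17 had a median log2 fold change of 0.53 in Stat5a-/- against wt, with 56.1% called higher and 3.55% called lower. Of its 20 nearest tested neighbours, 14 were called higher and 0 lower, with a median of 0.49. Relative to these neighbours, the log2 fold change of Uhrf1 was 0.41 in place of 0.90. The direct comparison of the knockouts shifted likewise, from -0.65 to -0.20 relative to the neighbours. Chromosomes 18 and 19 had medians of 0.43 and 0.41 in Stat5a-/-, and every other autosome and the X chromosome lay between -0.10 and 0.10. The part of this shift in the Uhrf1 result was not tested.

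Dnmt3a, a de novo methyltransferase, was lower in the Stat5a-/- line. It was at 98.8, 87.5 and 95.0 CPM in wt, 64.4, 63.8 and 71.8 in Stat5a-/-, and 84.4, 79.5 and 70.5 in Stat5b-/-. Both knockouts lay below all wt libraries, and they overlapped with each other. The log2 fold change was -0.49 (SE 0.103, adjusted p = 0.00209) in Stat5a-/- and -0.26 (SE 0.103, adjusted p = 0.0516) in Stat5b-/-. The Stat5b-/- value lay at the threshold: it passed under 8 of 18 alternatives, among them DESeq2 (adjusted p = 0.0322) and the fits without wt replicate 2 (0.0494), Stat5a-/- replicate 3 (0.0362) or Stat5b-/- replicate 1 (0.0267). With T-cell transcripts as a covariate, the Stat5b-/- value was about 0 (-0.003, adjusted p = 0.997) and the Stat5a-/- call was lost (-0.34, adjusted p = 0.206).

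Dnmt3b, the other de novo enzyme, showed the widest difference from wt of the methyltransferases in Stat5b-/-. Its libraries held 20.4, 17.4 and 19.06 CPM in wt, 14.3, 15.8 and 15.5 in Stat5a-/-, and 7.41, 8.06 and 7.54 in Stat5b-/-. The 3 genotypes did not overlap, and Stat5b-/- was the lowest by a wide margin. The log2 fold change in Stat5b-/- was -1.30 against wt (SE 0.125, adjusted p = 2.28e-06) and -0.99 against Stat5a-/- (SE 0.128, adjusted p = 6.52e-05), while that of Stat5a-/- against wt was -0.32 (SE 0.119, adjusted p = 0.053). That last value passed under 4 of 18 alternatives, among them the fit without Stat5b-/- replicate 1 (adjusted p = 0.0403). Non-overlap was itself common, found for 54.2% of all tested genes in Stat5b-/- against wt, for 49.2% in Stat5a-/- against wt and for 44.8% between the knockouts. Neighbours on chromosome 2 did not as a group share the Stat5b-/- difference, with a median of -0.01 over 20 genes, 3 called higher and 3 lower. In Stat5a-/- against wt their median was also -0.01, with 0 called higher and 8 lower, beside 19.8% and 16.3% of all tested genes. With T-cell transcripts as a covariate, the Stat5b-/- difference from wt was -0.91 and no longer called (adjusted p = 0.104), and that of Stat5a-/- was -0.09 (adjusted p = 0.791), while the difference between the knockouts was -0.82 and still called (adjusted p = 0.00775).

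Within a library, the ratio of Dnmt3b to Dnmt3a is free of sequencing depth. Per length of exon it was 0.674, 0.649 and 0.654 in wt, 0.725, 0.807 and 0.704 in Stat5a-/-, and 0.286, 0.331 and 0.349 in Stat5b-/-. The ratio in Stat5b-/- thus averaged 0.322 ± 0.0324 (SD, n = 3) against 0.659 ± 0.0132 in wt and 0.745 ± 0.0540 in Stat5a-/-, with no overlap between any of the lines. Each of the 3 comparisons gave p = 0.1 in an exact two-sided permutation test, the smallest p that 3 against 3 libraries allow. The difference of Stat5a-/- from wt, 0.0864, ran from 0.0558 without Stat5a-/- replicate 2 to 0.107 without Stat5a-/- replicate 3.

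**Figure D2:**
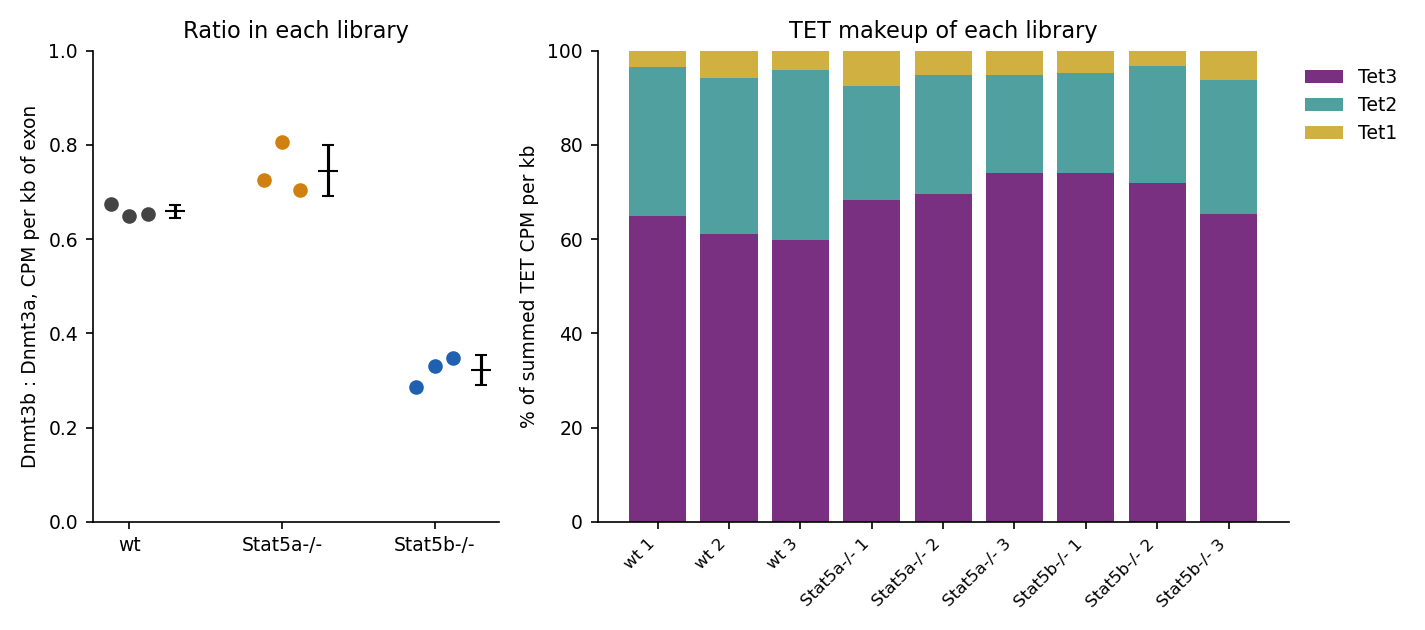
Left, ratio of Dnmt3b to Dnmt3a in CPM per kilobase of exon for each library, with mean ± SD of 3 libraries per line. Right, percent of the summed TET level per kilobase taken by Tet3, Tet2 and Tet1 in each library. The Stat5b-/- ratios lie between 0.286 and 0.349, and the Tet3 share is highest in Stat5b-/- replicate 1 at 74.1%.

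Tet1, the scarcest TET enzyme, was higher in both knockout lines. Its libraries held 3.55, 5.76 and 4.22 CPM in wt, 13.5, 8.63 and 10.2 in Stat5a-/-, and 11.2, 6.63 and 11.0 in Stat5b-/-. All knockout libraries lay above all wt libraries, on between 56 and 193 reads per library, and the SD within a line reached 26.9% of the mean. The log2 fold change was 1.25 in Stat5a-/- (SE 0.248, adjusted p = 0.0014) and 1.08 in Stat5b-/- (SE 0.248, adjusted p = 0.00312), and between the knockouts it was -0.17 (SE 0.237, adjusted p = 0.609). With T-cell transcripts as a covariate, the Stat5b-/- value turned to -0.59 (adjusted p = 0.567) and the Stat5a-/- value was 0.33 (adjusted p = 0.546). Between the knockouts, Tet1 was at -0.92 with that covariate (adjusted p = 0.0675) and at -0.31 with the GC offset (adjusted p = 0.246).

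Tet2 was higher in both knockouts, and its libraries varied little within each of them. It was at 36.6, 37.6 and 42.9 CPM in wt, 47.8, 47.5 and 46.9 in Stat5a-/-, and 57.5, 57.5 and 55.8 in Stat5b-/-. The lines did not overlap and stood in the order wt, Stat5a-/-, Stat5b-/-. Its log2 fold change was 0.54 in Stat5b-/- (SE 0.0972, adjusted p = 5.14e-04) and 0.28 in Stat5a-/- (SE 0.0977, adjusted p = 0.0392), and between the knockouts it was 0.26 (SE 0.0974, adjusted p = 0.0528). The Stat5a-/- call held in 6 of 18 alternatives only and was lost with the replicate number as a block (adjusted p = 0.0927). It was also lost without any of 7 of the 9 libraries, with adjusted p between 0.0535 and 0.131, the exceptions being wt replicate 3 and Stat5b-/- replicate 3. In Stat5b-/- the call was lost with T-cell transcripts as a covariate, at a log2 fold change of 0.46 (adjusted p = 0.321). Relative to the median of its 20 neighbouring genes, Tet2 was at 0.67 in Stat5b-/- and 0.49 in Stat5a-/-, and the difference between the knockouts was 0.11. With the GC offset that difference was 0.12 (adjusted p = 0.358), and Stat5a-/- against wt was 0.44 (adjusted p = 0.0025), so the distance between the knockouts in this order depends on the correction.

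Tet3, the most abundant TET gene, was higher in both knockouts. Tet3 reached 74.4, 68.4 and 70.1 CPM in wt, 135, 129 and 165 in Stat5a-/-, and 198, 165 and 126 in Stat5b-/-. Every knockout library lay far above wt, and the knockouts overlapped. Its log2 fold change was 1.20 in Stat5b-/- (SE 0.15, adjusted p = 2.57e-05) and 1.01 in Stat5a-/- (SE 0.15, adjusted p = 1.38e-04), and between the knockouts it was 0.19 (SE 0.148, adjusted p = 0.337). That last value was 0.02 without Stat5b-/- replicate 1 and 0.35 (adjusted p = 0.0516) without Stat5b-/- replicate 3. With the GC offset it was 0.33 and called (adjusted p = 0.00934). With T-cell transcripts as a covariate, Tet3 was at 1.44 in Stat5b-/-, without a call (adjusted p = 0.0669), and at 1.14 in Stat5a-/-, where the call was kept (adjusted p = 0.0148).

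**Figure D3:**
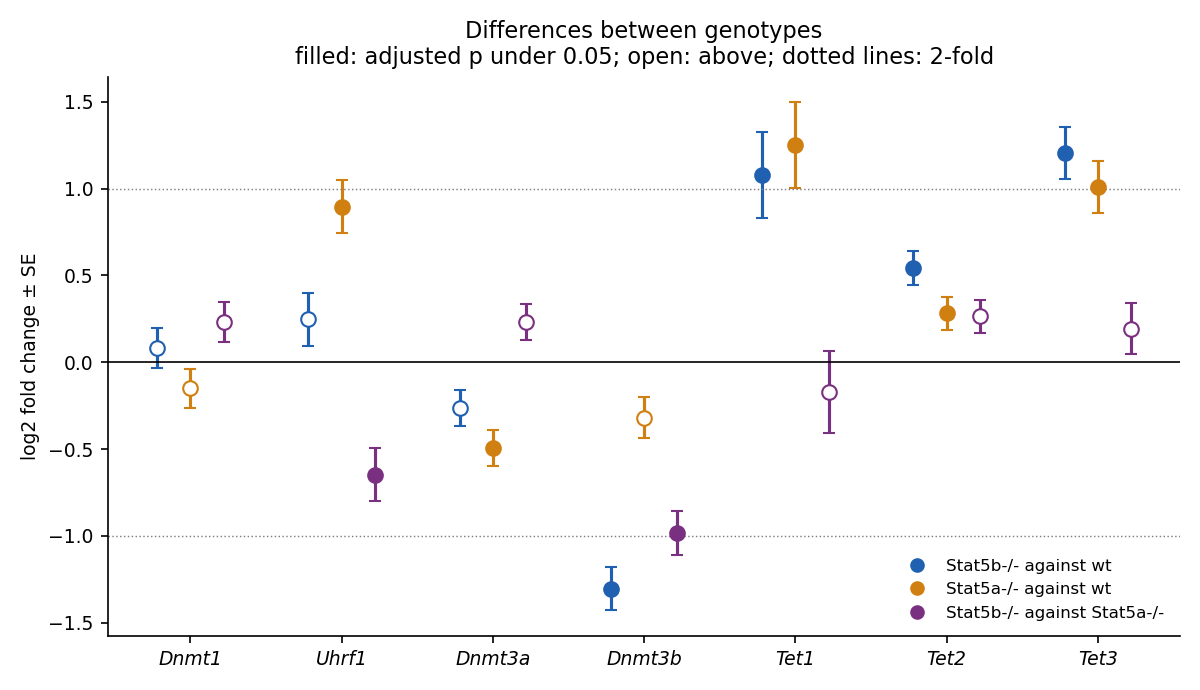
Log2 fold change ± SE of the 7 genes in Stat5b-/- against wt, Stat5a-/- against wt and Stat5b-/- against Stat5a-/-. Filled points passed an adjusted p of 0.05, and the dotted lines mark a fold of 2. Dnmt3b in Stat5b-/- lies at -1.30, and the TET genes lie above 0 in both comparisons with wt.

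Most neighbours of Tet3 were called higher as well, in both lines. Tet3 lies at chr6:83362373-83459084 (GRCm38, minus strand). Of the 20 tested genes next to it (10 on each side), within 0.912 Mb, 16 were called higher in Stat5b-/- and 14 in Stat5a-/-, with 0 called lower in either, and their median log2 fold changes were 0.85 and 0.67. Relative to these neighbours, Tet3 was at 0.35 in Stat5b-/- and 0.34 in Stat5a-/-. The medians of the other 693 genes of chromosome 6 were 0.22 and 0.09.

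The raised stretch included both sides of Tet3 and ran towards higher coordinates. Genes within 2 Mb on either side had medians of 0.74 in Stat5b-/- and 0.63 in Stat5a-/- over 39 genes. From 10 to 2 Mb below Tet3 only 3 genes were tested, with medians of -0.24 and 0.31, so where the stretch starts could not be placed. Genes from 20 to 10 Mb below Tet3 had medians of 0.10 in Stat5b-/- and about 0 (-0.005) in Stat5a-/- over 63 genes. Genes from 2 to 10 Mb above it had medians of 0.81 and 0.82 over 69 genes, with 89.9% and 92.8% of them above 0. From 10 to 20 Mb above, the medians were 0.78 and 0.59 over 20 genes. The part of this stretch in the Tet3 result was not tested. No such rise surrounded the other TET genes. The 20 neighbours of Tet1 had medians of 0.04 in Stat5b-/- (5 called higher, 6 lower) and -0.11 in Stat5a-/- (1 higher, 5 lower). Those of Tet2 had medians of -0.13 in Stat5b-/- (2 higher, 6 lower) and -0.21 in Stat5a-/- (0 higher, 8 lower). Of all tested genes, 24.2% were higher and 22% lower in Stat5b-/-, and 19.8% and 16.3% in Stat5a-/-.

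**Figure D4:**
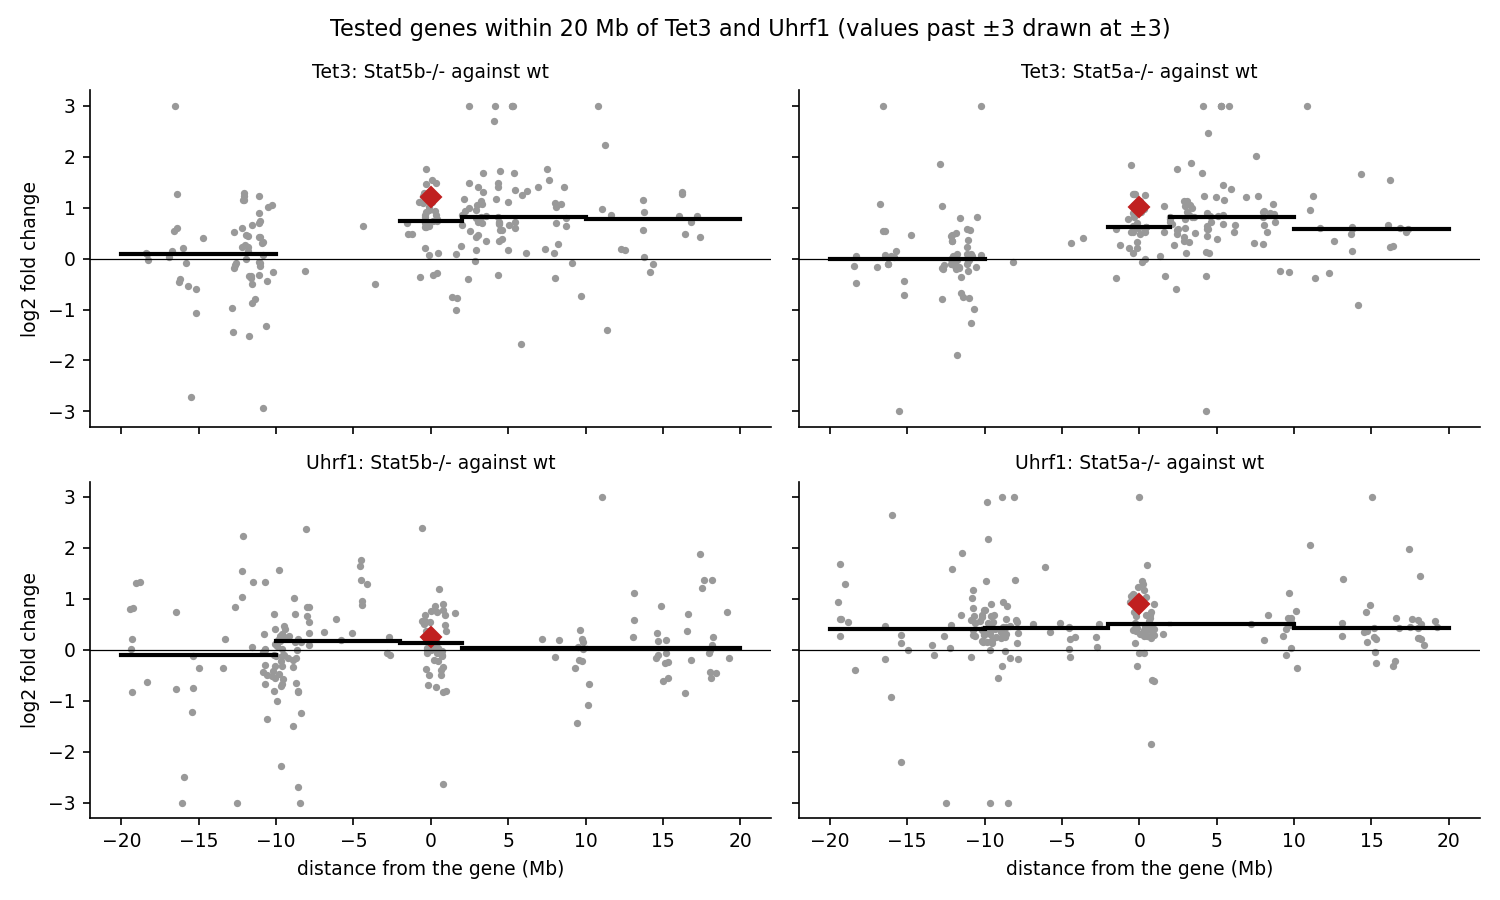
Log2 fold change against wt of the tested genes (grey points) by distance in megabases from Tet3 (top) and Uhrf1 (bottom), in Stat5b-/- (left) and Stat5a-/- (right). Red diamonds mark Tet3 and Uhrf1, and black lines are medians of bins with at least 10 genes. Around Tet3 the medians are 0.74 and 0.63 within 2 Mb on either side and 0.81 and 0.82 from 2 to 10 Mb above, higher than from 20 to 10 Mb below, and around Uhrf1 they lie between 0.40 and 0.50 throughout in Stat5a-/-.

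Tet3 took a larger share of the TET transcripts in both knockouts than in wt, without overlap. Per length of exon, Tet3 took 64.9%, 61.1% and 59.8% of the summed TET level in the wt libraries, 68.4%, 69.5% and 74.1% in Stat5a-/- and 74.1%, 72.0% and 65.3% in Stat5b-/-. Tet2 took 33.7% ± 2.33 (mean ± SD, n = 3) for wt, but 23.4% ± 2.28 for Stat5a-/- and 24.8% ± 3.62 for Stat5b-/-, again without overlap between wt and either knockout. Both knockouts differed from wt at p = 0.1 for each of these shares, the smallest that the exact two-sided permutation test can give here. The Tet1 share, 4.37%, 5.94% and 4.71% on average, overlapped between all lines (exact permutation p of 0.3 for Stat5a-/- and 0.8 for Stat5b-/- against wt).

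The order of the 7 genes by CPM per kilobase of exon changed in the middle and not at its ends. In wt it ran Dnmt1 (77.4), Uhrf1 (31.95), Dnmt3a (5.63), Tet3 (4.25), Dnmt3b (3.72), Tet2 (2.31) and Tet1 (0.299), with no overlap between neighbours in the order. In Stat5a-/- Tet3 (8.56) stood above Dnmt3a (4.01), and 2 pairs of neighbours overlapped, Dnmt1 with Uhrf1 and Dnmt3b (2.98) with Tet2 (2.81). In Stat5b-/- Tet3 (9.78) stood above Dnmt3a (4.69), and Tet2 (3.37) stood above Dnmt3b (1.502), with no overlap between neighbours. Tet1 closed the order in all lines, at 0.715 in Stat5a-/- and 0.638 in Stat5b-/-.

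Antisense or overlapping genes contributed little to these levels, although the counting was set without strand. Dnmt3aos shares 133 exon bases with Dnmt3a (0.799% of its exon length) and Gm42567 shares 43 with Tet2 (0.255%), and neither reached more than 2 counts in a library.

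The 2 genes most like each member across the 9 libraries were found by Pearson's r of log2 CPM. These values are descriptions over 9 points that share 3 lines. Dnmt3b was most like Rasl11b (r = 0.996) and Plxnb2 (r = 0.994), which differed more widely than Dnmt3b, with log2 fold changes of -3.33 and -5.82 in Stat5b-/- against wt. Tet3 was most like Rara (r = 0.998), the retinoic acid receptor alpha gene, and Nup210 (r = 0.996), a nuclear pore gene that lies on chromosome 6 in the raised stretch. Uhrf1 was most like Dhx16 (r = 0.994) and Tfeb (r = 0.989), both on chromosome 17. Tet1 was most like Slc16a5 and Insrr, Tet2 most like Sod3 and Lrig1, Dnmt3a most like Hlx and Arhgap23, and Dnmt1 most like Ankrd11 and Plcg2, with r between 0.972 and 0.986.

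Of the genes that work beside the methyltransferases (relatives, cofactors and recruiters), 12 of 15 were tested, and 3 were higher and 2 lower in Stat5b-/- against wt, where 24.2% of all tested genes were higher and 22% lower. Hells, a chromatin remodeller needed for normal DNA methylation, fell from 124 to 65.9 CPM in Stat5b-/- (log2 fold change -0.91, SE 0.159, adjusted p = 4.16e-04). The histone methyltransferases Nsd1 and Nsd2, whose mark recruits Dnmt3a, were higher by 0.47 and 0.44. In Stat5a-/- 2 were higher and 2 lower, where these shares were 19.8% and 16.3%. The median log2 fold change of the list was 0.02 in Stat5b-/- and -0.03 in Stat5a-/-, beside 0.02 and 0.01 over all genes. Among the higher genes of Stat5a-/-, Uhrf2, the paralogue of Uhrf1 on chromosome 19, rose from 63.8 to 154 CPM (log2 fold change 1.27, SE 0.123, adjusted p = 2.95e-06). Both Uhrf genes thus rose in the Stat5a-/- line, on chromosomes whose medians were 0.53 and 0.41. Dnmt3l, the catalytically inactive partner of the de novo enzymes, and Dppa3, an inhibitor of Uhrf1, had 0 counts in all libraries, where 3 counts would be between 0.158 and 0.251 CPM before TMM normalisation, counting error only.

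Of the 7 genes that read methylated CpG, 2 were higher and 0 lower in each knockout against wt. These 2 of 7 (28.6%) lie below the 46.2% of all tested genes called in Stat5b-/- and the 36% called in Stat5a-/-, and the list's medians were 0.14 and 0.06. In Stat5b-/- these were Zbtb38 (0.73, adjusted p = 1.61e-04) and Zbtb4 (0.61, adjusted p = 0.00478), both zinc finger proteins that bind methylated DNA. In Stat5a-/- they were Mbd1 (0.68, adjusted p = 7.14e-05) and Mbd2 (0.39, adjusted p = 0.0375), both on chromosome 18, with a median of 0.43.

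Base excision repair restores cytosine after TET oxidation. Of its 9 tested genes, 0 were higher and 3 lower in Stat5b-/-, where the endonuclease gene Apex1 fell by 0.80, Neil1 by 0.46 and Parp1 by 0.34 on the log2 scale. In Stat5a-/- 1 was higher and 2 lower: Neil1 rose by 0.43, while Tdg, the glycosylase that excises the oxidised bases, fell by 0.53 and Parp1 by 0.40. Thus 3 of the 9 were called in each line, with both directions together no larger a share than the 46.2% and 36% of all tested genes. By direction, 22% of all tested genes were lower in Stat5b-/- and 16.3% in Stat5a-/-, beside 3 and 2 of the 9. Higher were 24.2% and 19.8% of all tested genes, beside 0 and 1 of the 9. The list's medians were -0.08 and -0.15.

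The TET enzymes need alpha-ketoglutarate, and genes that supply it or regulate TET proteins were counted as a list. Idh2, a mitochondrial enzyme that makes alpha-ketoglutarate, fell from 116 CPM in wt to 29.4 in Stat5b-/- (log2 fold change -1.98, SE 0.111, adjusted p = 1.32e-08). In Stat5a-/- it was at 142 CPM (0.29, adjusted p = 0.048). The list also holds Idh3a, Idh3b and Idh3g, with means of 289, 108 and 490 CPM in wt and 195, 88.1 and 387 in Stat5b-/-. Cxxc5, a CXXC protein known to bind Tet2, was higher in Stat5b-/- by 0.90. In all, 4 of 11 tested were higher and 5 lower in Stat5b-/-, and 3 and 1 in Stat5a-/-, beside 46.2% and 36% of all tested genes called in either direction. The list's medians were -0.27 and -0.07.

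The methyl donor for the methyltransferases is made by the methionine cycle. Of its 9 tested genes, 1 was higher and 3 lower in Stat5b-/-, and 0 and 2 in Stat5a-/-, again beside 46.2% and 36% of all genes, with medians of -0.10 and -0.03. Ahcyl2, a relative of the enzyme that clears the product inhibitor of methylation, was called lower in both lines, with a log2 fold change of -0.55 in Stat5b-/- and -1.26 in Stat5a-/-.

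Germline genes are a standard readout of promoter methylation, since many are silenced by it in somatic cells. They stayed nearly silent here: of 18 genes, 8 had 0 counts in all libraries and 2 passed the filter. Their summed level was at most 2.98 CPM in wt, 3.85 in Stat5a-/- and 5.35 in Stat5b-/-. Of the 18 genes, 9 were at 0 in all wt libraries, 14 in Stat5a-/- and 15 in Stat5b-/-. Of the 2 tested, 1 was called in Stat5b-/- against wt and 0 in Stat5a-/-, beside 46.2% and 36% of all tested genes. Slc25a31, a germ cell carrier of adenine nucleotides, rose from 1.22 to 3.31 CPM in Stat5b-/- (log2 fold change 1.43, SE 0.331, adjusted p = 0.00336). It had 18 to 63 reads per library over both genotypes. The other, Brdt, was at 1.08 CPM in wt and 1.26 in Stat5b-/-, without a call.

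Since Dnmt1 and Uhrf1 follow the cell cycle in many cells, 16 proliferation genes were counted beside them. In each knockout 4 were higher and 2 lower than in wt, beside 46.2% and 36% of all tested genes called, with a median log2 fold change of 0.08 in Stat5b-/- and 0.01 in Stat5a-/-. Tyms rose in both lines, by 1.17 and 0.54, and Cdc6 fell in both, by -0.73 and -0.68. Mcm2, higher by 0.71 and 0.67, lies on chromosome 6 within the stretch above Tet3.

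**Figure D5:**
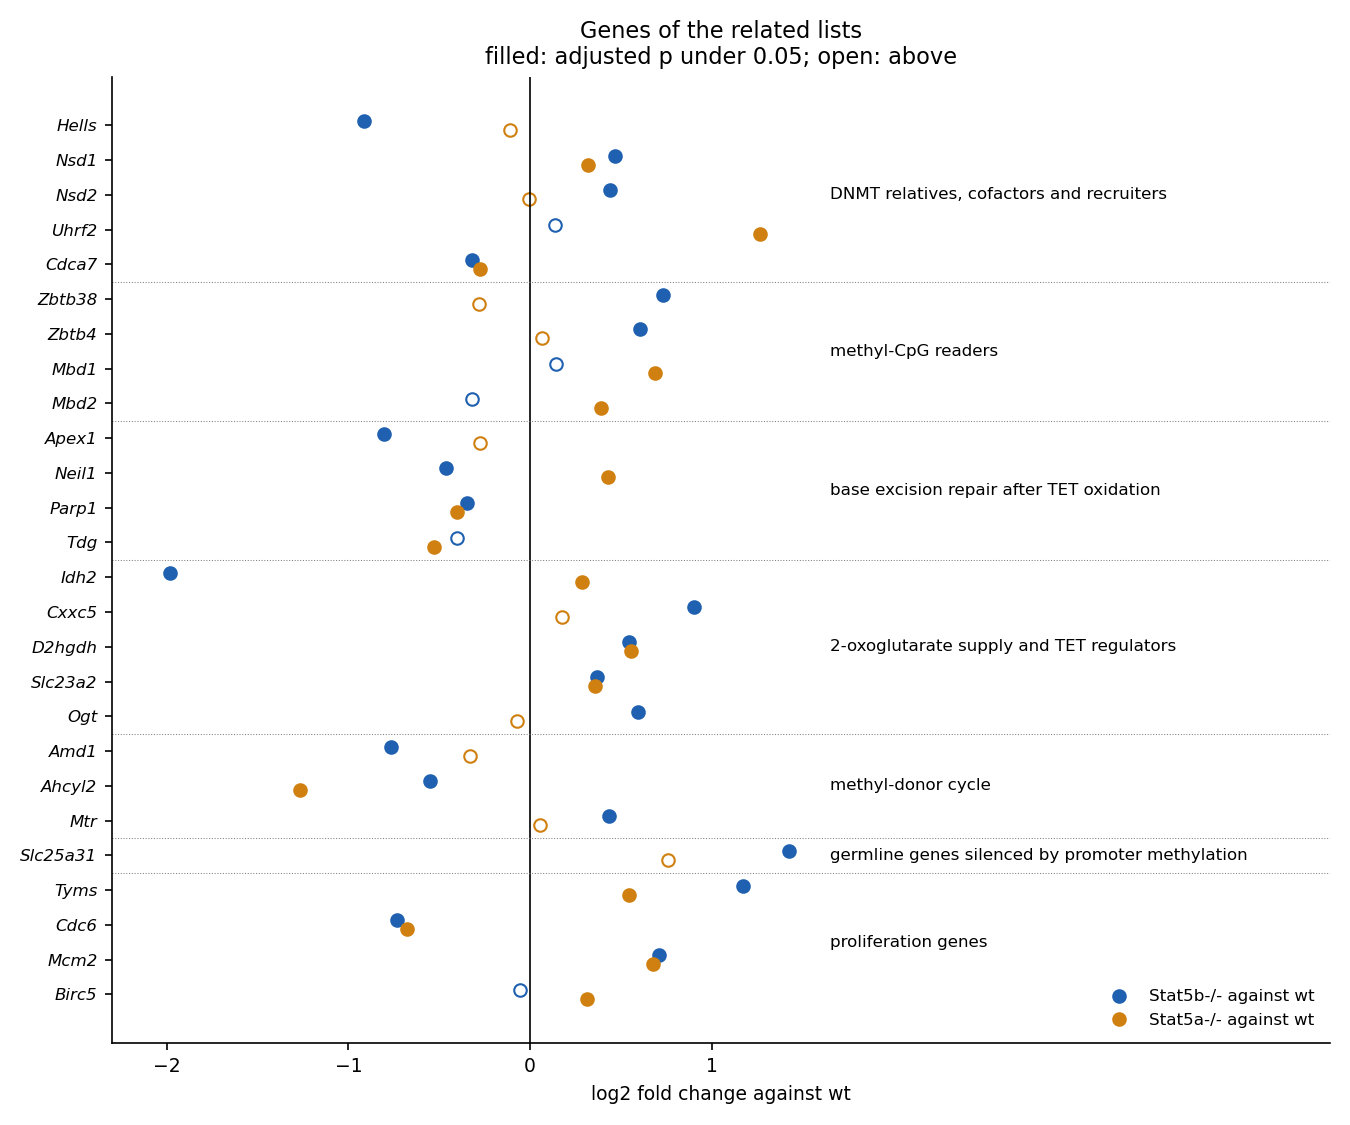
Log2 fold change against wt (horizontal axis) of named genes of 7 related lists, in Stat5b-/- (blue) and Stat5a-/- (orange). Filled points passed an adjusted p of 0.05. Idh2 lies farthest to the left, at -1.98 in Stat5b-/-, and Uhrf2 lies at 1.27 in Stat5a-/-.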

How the data were processed

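The 9 RNA-seq libraries come from 3 BCR/ABLp185+ lines (wt, Stat5a-/-, Stat5b-/-), each sequenced as 3 technical replicates. The authors cut adapters with Trimmomatic, mapped the reads with STAR to the GENCODE M13 genome (GRCm38) and deposited raw counts per gene from featureCounts 1.5.1. Per the file headers, no strand was set. Counts are therefore gene-level and unstranded, and without molecular identifiers they can count 1 molecule more than once. Groups follow the titles, although a description field names the knockout samples as wt. Human samples were not analysed here.

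Counts were tested with edgeR 4.0.16 (TMM, filterByExpr, glmQLFit and glmQLFTest on all 9 libraries, R 4.3.3, Benjamini-Hochberg over 13852 genes). Standard errors divide the absolute log2 fold change by the root of F. The threshold was an adjusted p of 0.05. Levels per kilobase divide by union exon length. Ratios were tested with exact permutation (scipy 1.17.1). The edgeR and DESeq2 steps were tested on simulated data. Alternatives were DESeq2 1.42.0, RLE, other filters, 2 genotypes only, a fold above 2, the replicate number as a block, each library left out, X, Y and mitochondrial genes left out, T-cell transcripts as a covariate and a GC offset. The comparison with 20 neighbouring genes (16 for Dnmt3a) was added after seeing the data. Promoters came from RefSeq (GRCm38.p6), and symbols, from GENCODE M21, matched 50376 of 50686 genes.

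The members and lists were chosen with earlier results of these data known. Of each related list, up to 3 called genes per comparison with the largest absolute log2 fold change and no overlap between groups were to be named, with the targeted genes, the 2 genes most like each member (log2 CPM, prior count 2) and genes overlapping a member. Some genes that this rule names are not reported here. Cd3e, Cd79a, Pax5, Ebf1, Brdt, Hba-a1, Hba-a2, Idh3a, Idh3b, Idh3g and, in Stat5a-/-, Mbd2 were named after their values were seen. The same holds for values of rule-named genes outside the comparison that named them.

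Replicates differed beyond sampling noise (chi-square per degree of freedom between 4.81 and 29.7). Replicate numbers did not pair libraries.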

Additional observations from a re-analysis of the deposited data

Results flagged for a closer look

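The 2 knockout lines differed for the following genes, by the direct test of Stat5b-/- against Stat5a-/- (edgeR, adjusted p under 0.05). For each gene there was no overlap between 3 and 3 libraries, and genotype and line cannot be told apart. Among the methylation enzymes these were Dnmt3b (log2 fold change -0.99) and Uhrf1 (-0.65). Among the methyltransferase cofactors, Uhrf2 (-1.13) and Hells (-0.81) were lower in Stat5b-/- and Nsd2 (0.44) was higher. Among the readers of methylated CpG, Mbd2 (-0.71) and Mbd1 (-0.54) were lower and Zbtb38 (1.01) was higher. The repair genes Neil1 (-0.89) and Apex1 (-0.53) were lower. Idh2 (-2.27) was lower, while Cxxc5 (0.72) and Ogt (0.67) were higher. In the methionine cycle Amd1 (-0.43) was lower and Mtr (0.38) higher, and of the proliferation genes Birc5 (-0.37) was lower and Tyms (0.63) higher. The targeted genes differed as labelled, Stat5a by 2.75 and Stat5b by -1.16. Of all tested genes 33.9% were called in this comparison. Uhrf1, Uhrf2, Hells, Mbd1, Mbd2 and Cxxc5 lie on chromosomes 17 to 19, whose medians in this comparison were -0.42, -0.48 and -0.43.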

How the results depend on the processing

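Of 378 tested values of the members' log2 fold changes under alternatives, 339 kept their direction and side of the threshold. The others were 18 calls lost, 17 gained and 4 reversals. Of 42 values without a test, taken relative to the chromosome or to neighbouring genes, 28 moved by less than the spread and 14 by more. The reversals were Tet1 in Stat5b-/- against wt (-0.59) and Dnmt1 in Stat5a-/- against wt (0.18) with T-cell transcripts as a covariate, and Tet1 between the knockouts without Stat5a-/- replicate 1 (0.031) and without Stat5b-/- replicate 2 (0.038), where leaving out 1 library gave values from -0.32 to 0.04. With that covariate, the members called in Stat5b-/- against wt were 0 higher and 0 lower, those in Stat5a-/- were 2 higher and 0 lower, and those between the knockouts were 0 higher and 1 lower. The T-cell level did not overlap between genotypes, so this fit leaves little of either to tell apart, and over all genes the calls in Stat5b-/- against wt fell to 729 higher and 664 lower, from 3348 and 3049.

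In Stat5b-/- against wt, 2 members in place of 1 were lower with DESeq2, RLE, a mean of at least 10 counts, the GC offset, or without X, Y and mitochondrial genes, since Dnmt3a joined. Leaving out 1 library gave 3 to 4 higher and 1 to 2 lower, Dnmt3a joining without wt replicate 2, Stat5a-/- replicate 3 or Stat5b-/- replicate 1, and Uhrf1 without Stat5b-/- replicate 3. In Stat5a-/- against wt, 2 were lower with RLE or without X, Y and mitochondrial genes and 3 with the GC offset. With a fold above 2, 2 were higher and 0 lower, and without 1 library 3 to 4 were higher and 1 to 2 lower, Dnmt3b joining without Stat5b-/- replicate 1. Between the knockouts, 3 were higher with the GC offset (Dnmt1, Dnmt3a and Tet3), and 0 were lower with a fold above 2, while leaving out 1 library always gave 0 higher and 2 lower. The cause of these changes was not tested.

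The replicate numbers did not mark shared samples: deviations of same-numbered libraries correlated at -0.0877 on average over 9 pairs, and 3 of 18 cases correlated best with their own number. With the replicate block, 3 members were higher and 1 lower in Stat5b-/- against wt, 3 and 1 in Stat5a-/-, where Tet2 lost its call, and 0 and 2 between the knockouts.

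The ratios and shares kept their direction in 91 of 96 values. Without 1 library, the difference in Tet1 share of Stat5b-/- against wt ran from -0.445 to 1.09 percentage points (-0.133 without wt replicate 1), that in Tet2 share between the knockouts from -0.364 to 3.26, and that in Tet3 share from -2.06 to 2.37 (1.47 without Stat5a-/- replicate 3). Of 462 counts over the related lists, 95 moved by more than 1.5 times, most of them counts of a few genes. Depth limits Tet1 most, at 56 to 193 reads.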
